A study of Mus musculus with 17 samples.

Results

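The liver makes most of the plasma proteins that form a clot and most of the proteins of complement. Transcripts of 37 such genes of coagulation, fibrinolysis and complement were followed in livers without hepatic NgBR and in the tumors that grew there. They were chosen by name, as known products of the liver, with earlier results of these data known. Of the 37 symbols, 36 had a row in both count tables, out of 19151 genes listed for the high-fat diet (HFD) and 24233 listed for the Western diet (WD). C5 had no row under that symbol, and RefSeq gives C5 as a synonym of Hc, which is described with the other genes of the pathways. All 36 genes had enough counts to be tested in every comparison, and the lowest estimated count of any of them in any library was 61 (Mbl2).

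Clotting runs as a chain of serine proteases. Contact proteins (F12, Klkb1, the kininogens) and F11 and F9 form the intrinsic arm, F7 starts the extrinsic arm, and both meet at F10, which with its cofactor F5 turns prothrombin (F2) into thrombin. Thrombin cleaves fibrinogen, made of 3 chains, into fibrin. Proc, Pros1 and Proz restrain the chain, and plasminogen (Plg) dissolves fibrin. Complement starts from C1 proteases, from mannose-binding lectins with the Masp proteases, or from C3 with factor B, and ends in the pore built from C5b, C6, C7, C8 and C9. Most of these proteins carry N-linked sugars that are built in the endoplasmic reticulum on dolichol, the lipid that needs the cis-prenyltransferase of NgBR and Dhdds. Transcript levels say nothing of how well a protein was glycosylated or secreted.

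Bulk RNA-seq was done on 17 libraries. Under HFD there were 4 WT livers and 4 livers of liver-specific NgBR knockout mice (N-LKO). The WD part had 3 livers from WT mice and, from N-LKO mice, 3 livers and 3 tumors, and each diet was given for 16 weeks. The N-LKO mice carried a floxed Nus1 gene, which encodes NgBR, and a Cre driven by the albumin promoter, so that deletion is aimed at hepatocytes and the other cells of the liver keep the gene. The labels call the samples biological replicates but do not say which tumor came from which animal. According to the methods of the study the mice were male, age-matched and of C57BL6 background, had standard chow before the diet, and the WD was rich in cholesterol as well as fat.

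Values are CPM, estimated counts scaled to the TMM-adjusted library size. A gene is said to have risen or fallen only where the adjusted p of edgeR's quasi-likelihood test was under 0.05. Depth ran from 9096110 to 12215784 counts under HFD and from 15494731 to 20200618 under WD. Nus1 was lower in every N-LKO library than in every WT library of the same diet. It passed the test under HFD (log2 fold change −1.33, adjusted p = 0.000194) and in tumor against WT liver (−1.40, adjusted p = 0.00433). In N-LKO against WT liver under WD, Nus1 did not pass (−1.02, adjusted p = 0.151). Its level was 82.5 to 96.2 CPM in WT and 29.4 to 38 CPM in N-LKO livers under HFD, and 88.2 to 98.9 CPM in WT livers, 41.7 to 51.1 CPM in N-LKO livers and 29 to 44 CPM in tumors under WD. All 10 hepatocyte markers listed (such as Alb, Ttr and Apoa1) had counts in every group. In bulk tissue, fewer hepatocytes and less of a transcript per hepatocyte cannot be told apart.

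One library stood apart. WT liver replicate 2 under WD had the lowest TMM factor (0.806), and 35 of the 36 genes in it were at or above the median of the WD WT livers, with a median log2 ratio of 0.44. The 36 genes took 3.78% of its counts, against 2.54% and 2.65% in the other WT livers on WD. The 17 acute phase genes listed outside the 36 (such as Saa1, Hp and Lcn2) summed to 22622 CPM in this library and to 9393 and 9538 CPM in the other WT livers on WD. Their median log2 ratio in it was 1.46. Hepatocyte markers also stood higher in it, with a median log2 ratio of 0.36. Its summed markers of Kupffer cells (614.9 CPM), stellate cells (457 CPM), cholangiocytes (18 CPM) and lymphocytes (29.3 CPM) were the lowest of the 3 WT livers on WD. Spp1 alone made up 10.3 CPM of the cholangiocyte sum and Ptprc alone 25.3 CPM of the lymphocyte sum. Many coagulation and complement genes, the fibrinogen chains and C3 among them, are themselves known acute phase genes. Every WD comparison with WT rests on this library, and the main values that moved without it are given beside the results. The part of these lists in those comparisons was not tested.

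**Figure D1:**
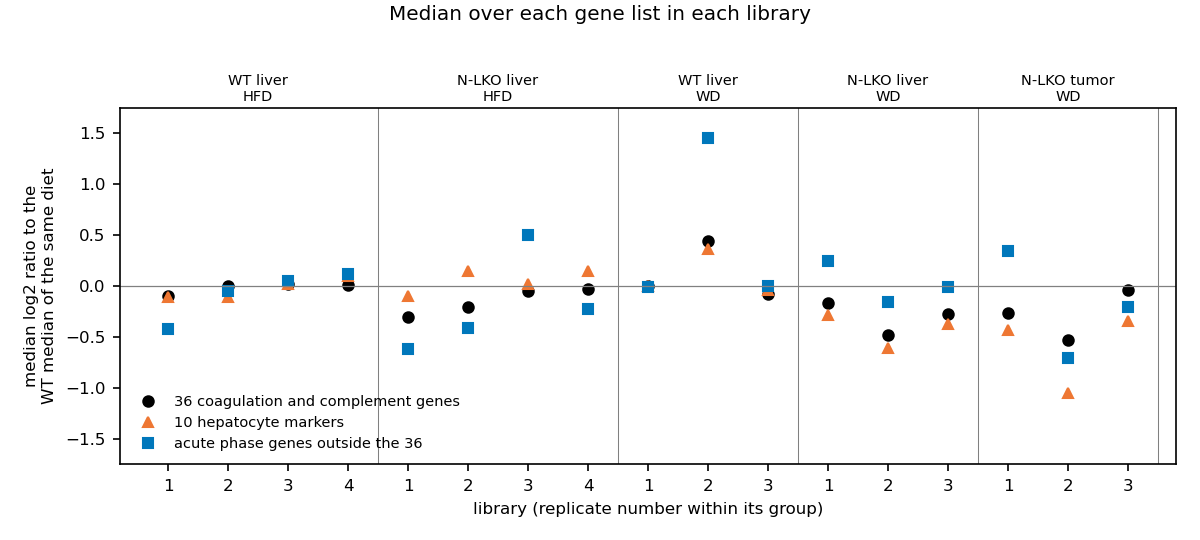
Each point is the median, over a gene list, of the log2 ratio of a library's CPM to the median CPM of the WT livers on the same diet. The x axis gives the 17 libraries by group and replicate number, and WT liver replicate 2 under WD lies at 0.44 for the 36 genes, at 0.36 for the hepatocyte markers and at 1.46 for the acute phase genes.

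The 36 genes differed widely in level. Compared per kilobase of transcript, Fga (1818 CPM per kb), Fgg (1662), C3 (1279) and Fgb (995) were the most abundant in WT liver under HFD. Plg, Kng1 and F2 followed with 846, 775 and 617 CPM per kb. At the other end were F7 with 27 CPM per kb, Pros1 with 22.1, F11 with 18.7 and C2 with 17. In tumors C3 stood first with 2007 CPM per kb and F11 last with 8.11. Fibrinogen chains kept close ratios to each other. Fga was 1.5 to 1.89 times Fgg in CPM over the 17 libraries, and Fgb was 1.16 to 1.43 times Fgg.

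**Figure D2:**
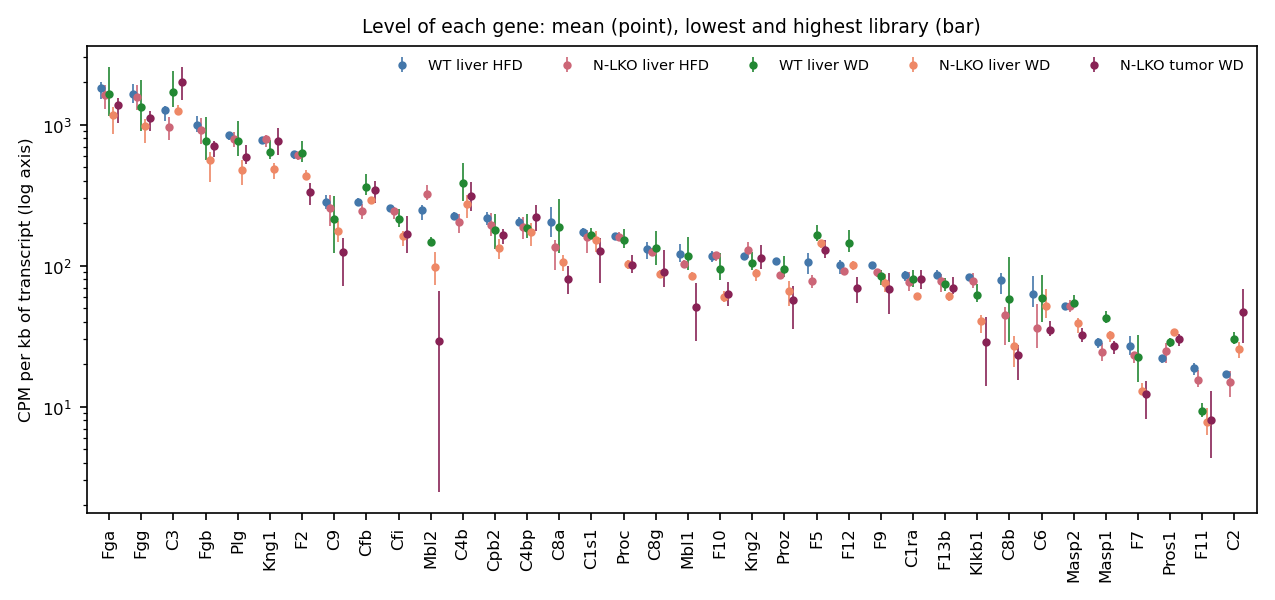
Mean CPM per kilobase of transcript (points, log axis) with the lowest and highest library (bars) for each of the 36 genes in the 5 groups, ordered by WT liver under HFD. Fga, at 1818 CPM per kb, leads the order and C2, at 17 CPM per kb, closes it, and the bar of Mbl2 in tumors is the longest.

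Some of the 36 genes are neighbours in the genome (GRCm38). C8b and C8a lie tail to tail on chromosome 4, 11.1 kb apart. The fibrinogen genes Fgg, Fga and Fgb lie in one cluster on chromosome 3 (chr3:83007724-83049863), F7, F10 and Proz stand in a row on chromosome 8, and Klkb1 and F11 are also next to each other there. On chromosome 17, the Cfb and C2 gene bodies are 85 bases apart. Genes with a near-identical relative in the mouse (C4b, C1ra, C1s1, Kng1 and Kng2) and such close neighbours can share reads, so their levels are uncertain. Fractional counts, the mark of shared reads, occurred in all 17 libraries for F5, Plg, Kng2, C2, C8a, C9, C1ra and C1s1, and in none for F7, F9, F11, Fgb and Mbl2.

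**Figure D3:**
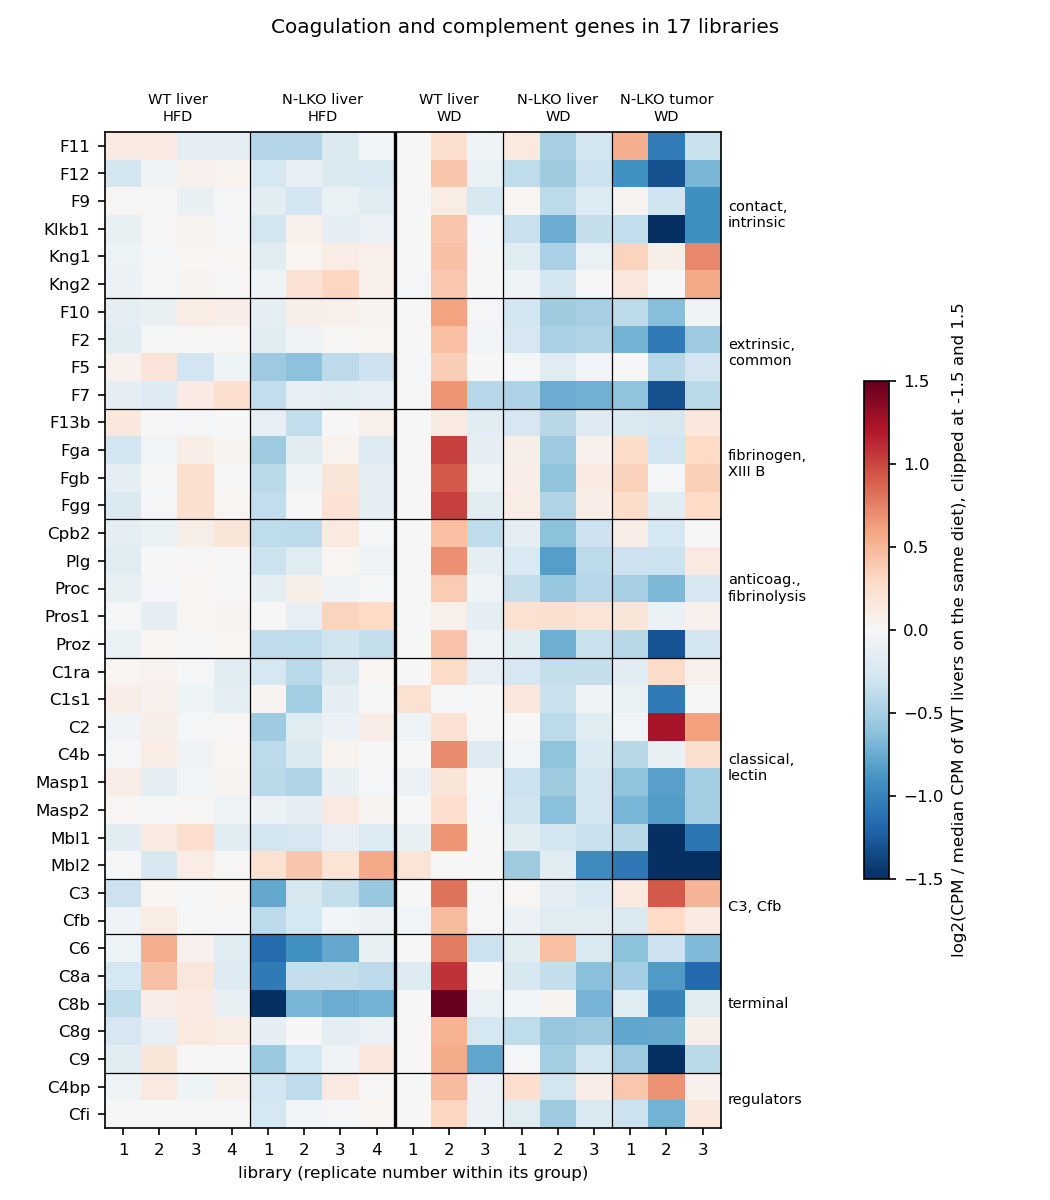
Each cell is the log2 ratio of one library's CPM to the median CPM of the WT livers on the same diet (color, clipped at −1.5 and 1.5), with the 36 genes in rows by role and the 17 libraries in columns by group. The column of WT liver replicate 2 under WD is red for nearly every gene, and Mbl2, Mbl1 and Klkb1 in tumor replicate 2 lie at the low end of the scale.

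Under HFD, loss of NgBR left most of these genes close to their WT level, with lower values in 31 of 36. C8b, F5 and Proz fell, and no gene rose. C8b encodes the beta chain of C8, which carries the pore into the membrane, F5 the cofactor of the enzyme that makes thrombin, and Proz a vitamin K-dependent protein that helps to inhibit F10. The 3 calls are 8.33% of the 36, beside 4.84% of all 13460 genes tested that passed in either direction and 2.29% that passed with a lower level. The median log2 fold change of the 36 was −0.15, and that of all genes was −0.01. At an unadjusted p under 0.05, 9 of the 36 differed, 8 of them lower, beside 3053 of all 13460 genes in either direction.

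C8b measured 141, 196, 199.6 and 170.3 CPM in the WT livers and, under HFD, 61.4, 113.97, 109.9 and 112 CPM in the N-LKO livers. All 4 N-LKO livers lay below all 4 WT livers, and N-LKO replicate 1 was the lowest by far. The log2 fold change was −0.83 ± 0.18 (SE, n = 4 a group, adjusted p = 0.0281). C8a, the neighbouring gene for the alpha chain, measured 581, 949.5, 786 and 615 CPM in WT and 336, 549, 546 and 533 CPM in N-LKO livers, again without overlap. A log2 fold change of −0.58 ± 0.18 did not pass (adjusted p = 0.0888). C8g, which encodes the small gamma chain and lies on another chromosome, stood at 129 to 170.5 CPM in WT and 139 to 154 CPM in N-LKO livers, with a log2 fold change of −0.07. C6, the first protein of the pore to bind C5b, measured 158, 243, 174 and 146 CPM in WT and 75, 88.6, 97.7 and 153 CPM in N-LKO livers. Its groups overlapped through N-LKO replicate 4, and its log2 fold change of −0.80 ± 0.21 had an adjusted p of 0.0542. C9, the subunit that closes the pore, had a log2 fold change of −0.16. All 5 genes of the terminal pathway were thus on the lower side, with a median log2 fold change of −0.58.

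Proz had the smallest spread of the called genes. It measured 341, 375, 358 and 375 CPM in WT and 282, 282, 299 and 286 CPM in N-LKO livers on that diet, with no overlap. The difference in log2 was −0.34 ± 0.07 (adjusted p = 0.0295). F5 measured 826, 908, 647 and 757 CPM in WT and 542, 517, 601 and 639.9 CPM in N-LKO livers. The lowest WT liver stood just above the highest N-LKO liver, and the log2 fold change was −0.45 ± 0.12 (adjusted p = 0.0493). F7 and F10, next to Proz on chromosome 8, were at −0.21 and 0.03 on the log2 scale, neither past the threshold. Of the 7 genes whose proteins need vitamin K (F2, F7, F9, F10, Proc, Pros1 and Proz), Proz alone passed under HFD, and their median log2 fold change was −0.01.

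Mbl2 went the other way. This mannose-binding lectin starts the lectin pathway, and it measured 270.4, 232, 295 and 277 CPM in WT and 321, 366, 316 and 406 CPM in those of N-LKO mice on HFD. All N-LKO livers lay above all WT livers, the only one of the 36 genes of which this held. The log2 fold change of 0.39 ± 0.11 missed the threshold (adjusted p = 0.0576). Groups did not overlap on the lower side for 4 of the 36 genes (F5, Proz, C8a and C8b, 11.1%), beside 7.4% of all genes tested. Fibrinogen chains were within −0.16 to −0.08 in log2 fold change, and C3, the central protein of complement, had −0.40 ± 0.13 (adjusted p = 0.1).

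The 3 calls under HFD were near the threshold. C8b passed in 11 of 15 alternative settings, Proz in 7 and F5 in 3, with no change of sign. C8b did not pass without WT replicate 2, 3 or 4 or N-LKO replicate 3 (adjusted p up to 0.0849), Proz without WT replicate 2 or 4 or N-LKO replicate 1, 3 or 4 (up to 0.0871), and F5 without any one library other than WT replicate 3 (up to 0.135 over all settings). The number of calls was 0 without WT replicate 2, without WT replicate 4 and without N-LKO replicate 3, and leaving out N-LKO replicate 1 gave 1. With a correction for transcript length and GC content, C8b alone passed. Markers moved with genotype too. Of the 12 male-biased liver genes listed, 5 fell under HFD (such as Hsd3b5 and Slco1a1), and their summed level was 14692 to 20865 CPM in WT and 6574 to 16460 CPM in N-LKO livers. Of the 5 tested female-biased genes 1 rose (Cyp2a4), of the 10 Kupffer cell and macrophage genes 3 fell (Clec4f, Marco and Timd4), of the 10 endothelial genes 1 fell (Stab2), of the 10 stellate cell genes 1 rose (Dpt) and of the 2 tested cholangiocyte genes 1 rose (Spp1). None of the 10 hepatocyte markers, of the 17 acute phase genes or of the lymphocyte markers (1 tested) passed, and the hepatocyte markers summed to 76870 to 87970 CPM in WT and 71762 to 91834 CPM in N-LKO livers. Their part in these results was not tested.

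**Figure D4:**
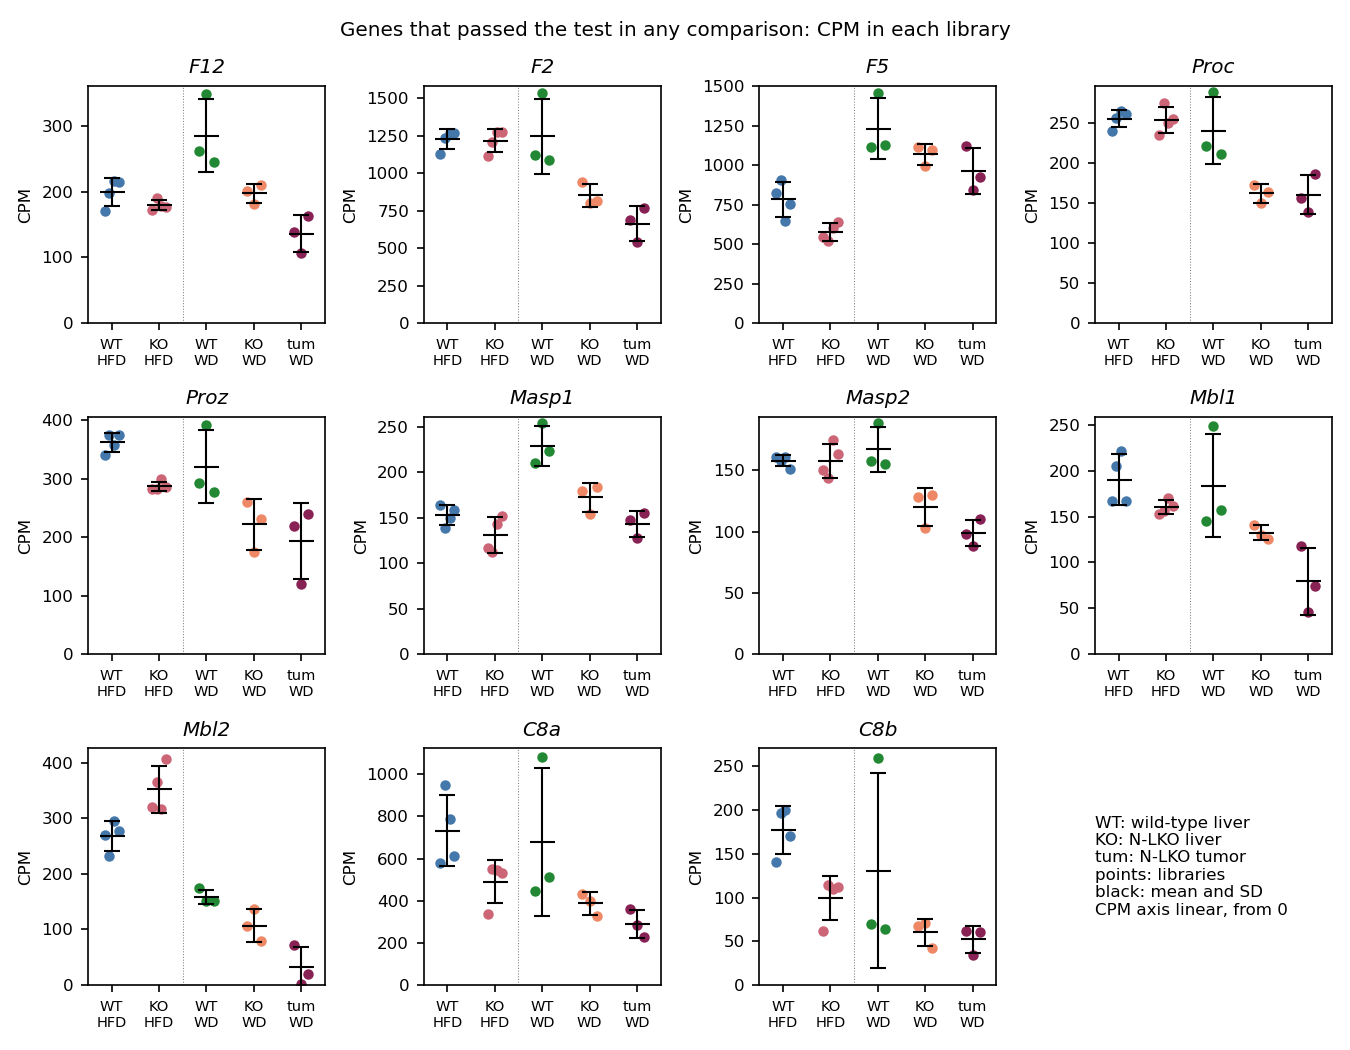
CPM in each library (points, linear axes from 0) with the mean and SD (black) for the 11 genes that passed the test in any comparison, in the 5 groups. Under HFD the points of C8b, F5 and Proz do not overlap between WT and N-LKO livers, and under WD the highest WT point of every gene except Mbl2 is replicate 2.

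Short motifs were looked for in the 250 bases before the RefSeq start of the genes. Windows were at hand for 28 of the 36 genes. Those of C8a and C8b are shown because these neighbours were both lower in all N-LKO livers under HFD, and those of Fga and Fgb because the fibrinogen chains moved together over the libraries. C8a is at chr4:104876399-104876648 (minus strand), C8b at chr4:104766067-104766316 (plus strand), Fga at chr3:83025903-83026152 (plus strand) and Fgb at chr3:83049864-83050113 (minus strand), all in GRCm38.p6 and written 5′ to 3′ along the gene. Capitals mark matches to the motifs.
C8a: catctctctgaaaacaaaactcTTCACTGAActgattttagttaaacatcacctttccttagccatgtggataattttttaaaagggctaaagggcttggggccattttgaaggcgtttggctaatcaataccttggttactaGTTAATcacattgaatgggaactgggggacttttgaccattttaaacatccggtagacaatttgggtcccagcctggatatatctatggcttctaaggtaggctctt
C8b: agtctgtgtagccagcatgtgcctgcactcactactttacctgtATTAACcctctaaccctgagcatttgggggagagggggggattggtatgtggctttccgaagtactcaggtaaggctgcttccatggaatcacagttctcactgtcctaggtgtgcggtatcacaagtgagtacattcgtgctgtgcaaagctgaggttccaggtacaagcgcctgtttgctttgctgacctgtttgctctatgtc
Fga: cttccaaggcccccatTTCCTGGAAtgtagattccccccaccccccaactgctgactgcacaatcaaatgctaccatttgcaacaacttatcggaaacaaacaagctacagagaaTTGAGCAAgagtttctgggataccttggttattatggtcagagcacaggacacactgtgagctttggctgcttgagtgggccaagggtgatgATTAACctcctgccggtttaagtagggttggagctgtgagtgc
Fgb: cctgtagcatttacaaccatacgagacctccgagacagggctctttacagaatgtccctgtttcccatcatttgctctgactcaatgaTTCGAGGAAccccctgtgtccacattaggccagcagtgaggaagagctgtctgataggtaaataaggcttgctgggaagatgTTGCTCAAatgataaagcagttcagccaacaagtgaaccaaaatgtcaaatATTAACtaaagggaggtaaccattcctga
The letters searched, on both strands, were GTTAAT, CAAAGTCC (HNF4), TTGCNNAA (C/EBP), TGTTTAC (FOXA) and TTCNNNGAA (STAT). C8a has GTTAAT and the STAT letters, C8b has GTTAAT, and Fga and Fgb each have GTTAAT and the C/EBP and STAT letters. None of these matches overlap. The window of Fgg, the fibrinogen chain not printed here, holds none of the letters searched, although its level moved with Fga and Fgb. Over the 28 genes, 8 hold GTTAAT (28.6%, beside 7.49% of all 27025 genes with windows), 9 the C/EBP letters (32.1%, beside 10.8%), 6 the STAT letters (21.4%, beside 8.13%) and 2 the FOXA letters (7.14%, beside 3.54%). The HNF4 letters are in none of the 28 and in 1.38% of all genes with windows. A match of letters is not a bound site. Of 14 hepatocyte transcription factors listed, 2 fell under HFD, among them Foxa1 (log2 fold change −0.65).

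Under WD, 35 of the 36 genes were lower in N-LKO than in WT liver, but none passed the test. The median log2 fold change was −0.44, beside 0.01 for all genes. No gene among all 17829 tested passed in this comparison either (0%), and 2212 had an unadjusted p under 0.05. Even Nus1, the deleted gene, did not pass (log2 fold change −1.02, adjusted p = 0.151), so the lack of a call does not show a lack of change. At an unadjusted p under 0.05, 12 of the 36 differed, all lower, and the lowest adjusted p was 0.353. DESeq2's test, which called 99 of all genes, also called 0 of the 36 (13 under an unadjusted p of 0.05), and limma-voom 0 (11). The groups did not overlap on the lower side for 19 of the 36 (52.8%), beside 13.6% of all genes tested, with 3 libraries a group.

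Much of the size of this difference came with WT replicate 2. Without it the median log2 fold change of the 36 was −0.19, and 31 were still negative. Fga measured 3270.0, 6646 and 2983 CPM in WT and 3471, 2238 and 3421 CPM in N-LKO livers, so that the WT range held all N-LKO livers but replicate 2. Its log2 fold change went from −0.50 to −0.04 without WT replicate 2, that of Fgb from −0.45 to −0.05, and that of Fgg from −0.45 to 0.02. C8b showed the same dependence most strongly, with 69.2, 259 and 64.4 CPM in WT and 67.1, 71.3 and 42.7 CPM in N-LKO livers. With that library the log2 fold change was −1.11, and without it −0.15. C8a went from −0.81 to −0.31 and C3 from −0.44 to −0.11.

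Other genes were lower against each WT liver. F2 measured 1120.1, 1533 and 1086 CPM in WT and 943, 802 and 817 CPM in N-LKO livers, with a log2 fold change of −0.54 ± 0.20 (adjusted p = 0.365). F10, which carries thrombin formation out, measured 202, 307 and 197 CPM in WT and 166, 139 and 143 CPM in N-LKO livers. Both were without overlap. Proc, which encodes the anticoagulant protein C, measured 221, 289 and 211 CPM in WT and 172, 149.7 and 163.8 CPM in N-LKO livers. Masp2, the protease that cleaves C4 and C2 after lectin binding, measured 158, 189 and 155 CPM in WT and 128.4, 103 and 130.2 CPM in N-LKO livers. None of these passed the test. Pros1, the cofactor of protein C, was the one gene on the higher side, at 95.5, 101 and 87.1 CPM in WT and 112, 113 and 110.4 CPM in N-LKO livers (log2 fold change 0.24 ± 0.12, adjusted p = 0.447). Without WT replicate 2 the log2 fold change of F2 was −0.37 and that of F10 −0.42. By role, the median log2 fold change ran from −0.25 for the complement regulators (Cfi and C4bp) to −0.60 for F2, F5, F7 and F10 and −0.62 for the terminal pathway.

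Hepatocyte markers were lower in the same livers. They summed to 61848 to 73068 CPM in WT and 44041 to 54831 CPM in N-LKO livers, and their median log2 fold change was −0.51, with 0 of 10 passing. The summed level of cholangiocyte markers was 18 to 70.2 CPM in WT and 116.01 to 154 CPM in N-LKO livers, that of lymphocyte markers 29.3 to 57.2 and 72.2 to 81.9 CPM, that of stellate cell and fibroblast markers 457 to 957 and 934 to 1131 CPM, that of Kupffer cell and macrophage markers 615 to 888 and 575 to 691 CPM, and that of endothelial markers 571 to 628 and 575 to 642 CPM. None of these markers passed, and their part in the lower level of the 36 genes was not tested.

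The comparison of tumor with N-LKO liver asks what differs between tumor and liver of one genotype. Here the 36 genes divided evenly, with 18 lower and 18 higher in tumors and a median log2 fold change of 0.02, beside 0.02 for all genes. None passed, beside 0.499% of all genes tested. At an unadjusted p under 0.05 there were 7, of which 3 were lower, beside 3256 of all 17829 genes in either direction. DESeq2's test called 2 (Kng1 and C2, both higher; 6 under an unadjusted p of 0.05), and limma-voom called 0 (7).

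C2, the protease that joins C4b to cleave C3, measured 76.3, 58.1 and 67.7 CPM in N-LKO livers and 74.5, 181 and 118 CPM in tumors. Tumor replicate 1 lay within the range of the livers, and the log2 fold change was 0.88 ± 0.27 (adjusted p = 0.135). C3 measured 7038, 6276 and 5973 CPM in N-LKO livers and 7738, 13239 and 9954 CPM in tumors, all 3 above the livers, with a log2 fold change of 0.68 ± 0.29 (adjusted p = 0.248). Kng1, which encodes the precursor of bradykinin, measured 1141, 930.0 and 1214 CPM in N-LKO livers and 1637, 1380.2 and 2139 CPM in tumors, also without overlap (0.65 ± 0.22, adjusted p = 0.165). At the other end stood the lectins. Mbl2 measured 105, 137 and 79.1 CPM in N-LKO livers and 72.2, 2.71 and 20.3 CPM in tumors, a range from near the liver level down to 61 counts in tumor replicate 2. Its log2 fold change was −1.76 ± 0.78 (adjusted p = 0.265), and that of Mbl1, its relative, was −0.74 ± 0.31 (adjusted p = 0.248).

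Groups did not overlap for 6 genes on the lower side (F2, F12, Pros1, C6, Mbl1 and Mbl2, 16.7%, beside 11.6% of all genes tested) and for 3 on the higher side (Kng1, C3 and C1ra, beside 11.5%). Without tumor replicate 1, 3 of the 36 passed (C2 higher, Mbl1 and Mbl2 lower), and no other library left out made a gene pass. The fibrinogen chains were at 0.21 to 0.33 in log2 fold change and Plg at 0.31, none near the threshold. Of the 7 tested cholangiocyte markers, Sox9 rose in tumors, while the median log2 fold change of the list was −0.65.

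**Figure D5:**
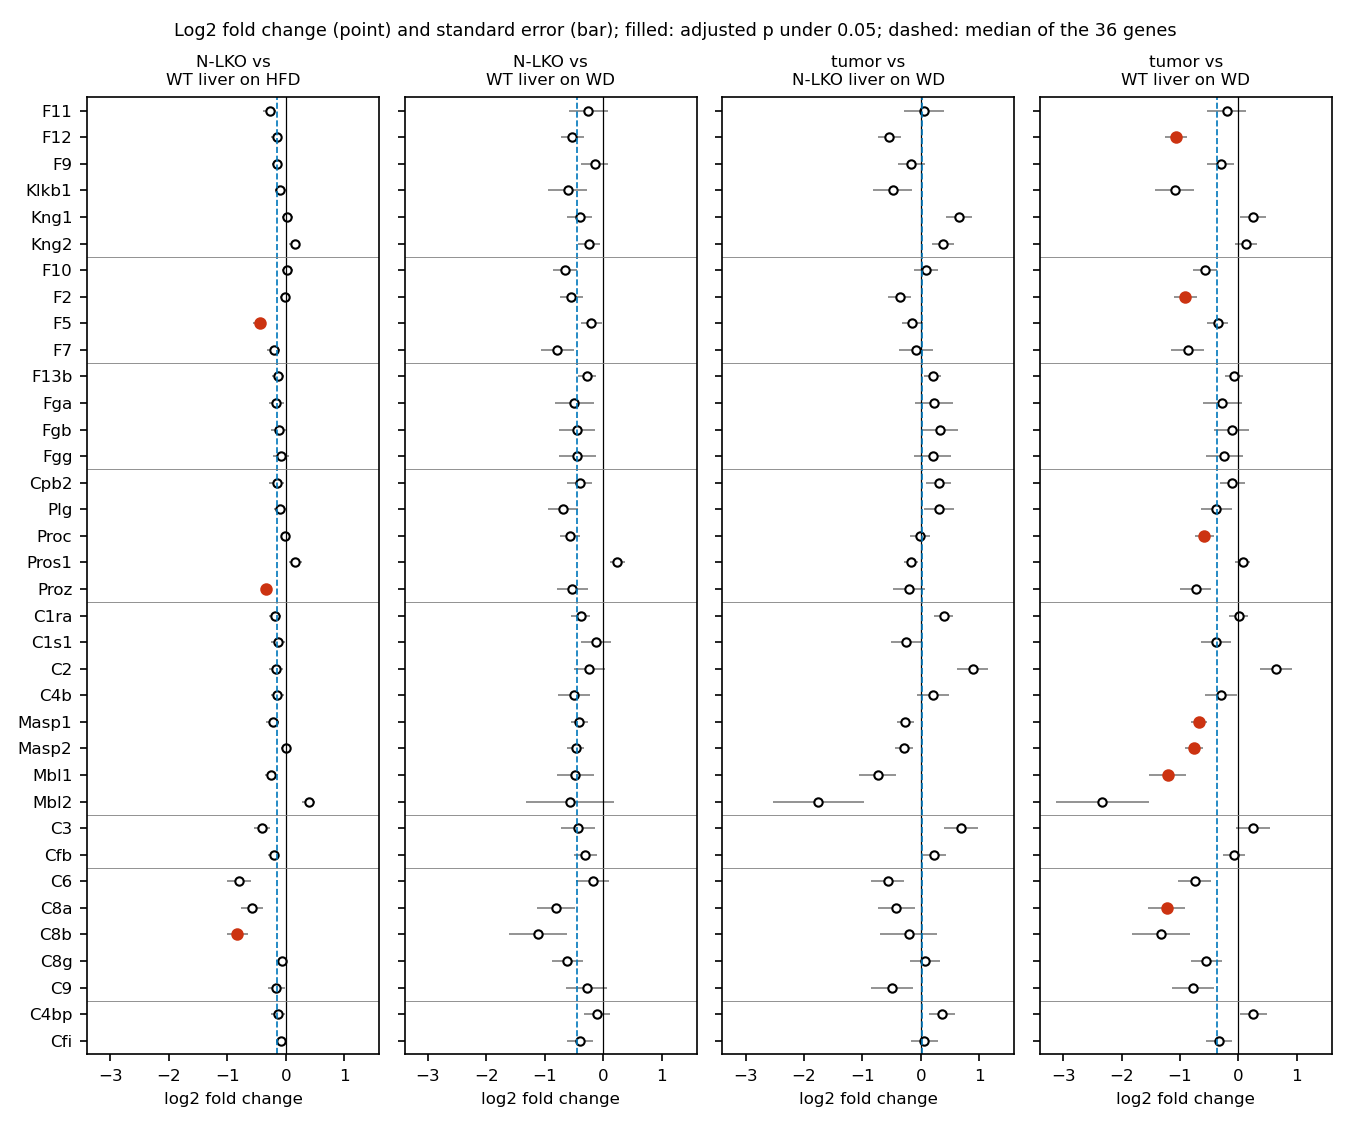
Log2 fold change (points) with its standard error (bars) for the 36 genes by role in 4 comparisons. Filled points passed the test, the dashed line is the median of the 36 genes (−0.15, −0.44, 0.02 and −0.37 from left to right), and all filled points lie on the lower side.

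Tumor against WT liver gave the most calls. F2, F12, Proc, C8a, Masp1, Masp2 and Mbl1 were lower in tumors, and no gene rose. The 7 calls are 19.4% of the 36, beside 14.9% of all genes tested in either direction and 6.8% on the lower side. The median log2 fold change was −0.37, beside 0.04 for all genes. Both this comparison and the preceding one use the tumor libraries, and it shares the WT libraries with the comparison of N-LKO and WT liver under WD, so the 3 sets of values are not independent.

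F12, the protein with which contact activation begins, measured 262, 349 and 245 CPM in WT livers and 139, 106 and 163.2 CPM in tumors. The N-LKO livers, at 201, 181 and 210.1 CPM, lay between them without touching either group. Its log2 fold change in tumor against WT was −1.07 ± 0.19 (n = 3 a group, adjusted p = 0.0119), and it passed in all 17 alternative settings. F2 showed the same order, with 1120.1, 1533 and 1086 CPM in WT livers and 688, 538 and 765 CPM in tumors, and N-LKO livers between them. The log2 fold change was −0.91 ± 0.20 (adjusted p = 0.0191). Proc measured 221, 289 and 211 CPM in WT livers and 156, 139 and 186 CPM in tumors, with a log2 fold change of −0.58 ± 0.17 (adjusted p = 0.0442), and the tumors overlapped the N-LKO livers.

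The lectin pathway held 3 of the calls, among 8 genes of the classical and lectin pathways. Masp1, a protease bound to the lectins, measured 209.8, 254 and 223 CPM in WT livers and 147, 127 and 155 CPM in tumors (−0.68 ± 0.14, adjusted p = 0.0177). Masp2 measured 158, 189 and 155 CPM in WT livers and 98.3, 88.5 and 110.0 CPM in tumors (−0.76 ± 0.15, adjusted p = 0.015). Mbl1 measured 146, 248 and 158 CPM in WT livers and 118, 45.4 and 74.4 CPM in tumors (−1.21 ± 0.32, adjusted p = 0.032). The tumors of all 3 genes lay below the WT livers. Mbl2, at 174, 152.1 and 151.6 CPM in WT livers, had the lowest log2 fold change of the 36, −2.33 ± 0.79, but its spread among tumors kept it from passing (adjusted p = 0.0737). None of C1ra, C4b, C1s1 and C2 passed. C1ra had a log2 fold change of 0.00, C4b of −0.30 and C1s1 of −0.39, and C2 was at 0.64.

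In the terminal pathway, C8a measured 446, 1082 and 510.5 CPM in WT livers and 359, 283 and 227 CPM in tumors. The tumors were all below the WT livers, with a log2 fold change of −1.23 ± 0.32 (adjusted p = 0.0328) and of −0.73 without WT replicate 2. C8b, at 61.2, 34.6 and 60.9 CPM in tumors, was just below the lowest WT liver, and its log2 fold change was −1.32 (adjusted p = 0.0966) with WT replicate 2 and −0.36 without it. The median over the 5 genes of this pathway was −0.78. Klkb1, plasma prekallikrein, measured 293, 391 and 288 CPM in WT livers and 227, 73.8 and 155 CPM in tumors, and narrowly missed the threshold (−1.09 ± 0.34, adjusted p = 0.0531). Groups did not overlap on the lower side for 12 of the 36 (33.3%), beside 16.4% of all genes tested, and on the higher side for 0.

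Without WT replicate 2 the median log2 fold change of the 36 was −0.23, and those of F2, F12, Proc, Masp1, Masp2 and Mbl1 were −0.74, −0.90, −0.43, −0.60, −0.67 and −0.94. In that fit F12 alone passed, and without N-LKO liver replicate 3, which enters through the shared spread, F2, F12, Masp1 and Masp2 did. With one of the other WD libraries left out, 5 to 9 genes passed. F2, Masp1 and Masp2 lost their call without WT replicate 2 (adjusted p 0.0623, 0.0626 and 0.0578), C8a without that library, N-LKO liver replicate 2 or 3 or tumor replicate 2 or 3, Mbl1 without any WT liver, N-LKO liver replicate 3 or tumor replicate 2 or 3, and Proc without any one library other than tumor replicate 3. When tumor and WT liver were fitted without the N-LKO livers, F12 and Masp2 passed. Of 10 hepatocyte markers, 5 were lower in tumors than in WT livers (Ttr, Apoa2, Apoh, Tat and Asgr1), with a median log2 fold change of −0.65 and a summed level of 46543 to 78551 CPM in tumors. Of the 14 hepatocyte transcription factors, 6 were lower, among them Hnf4a (−0.75) and Cebpb (−1.22). Markers of other cells moved as well. Of the cholangiocyte markers Sox9, Cldn7 and Spp1 were higher. Krt19 and Epcam of that list were not called, and their tumors lay on both sides of the WT livers. Krt19 measured 0.755, 0.136 and 0.596 CPM in WT livers and 1.21, 0.178 and 0.0521 CPM in tumors. Epcam measured 0.618, 0.61 and 1.07 CPM in WT livers and 3.37, 0.089 and 0.104 CPM in tumors. Of the lymphocyte markers Cd3g, Cd4 and Ptprc were higher. The lymphocyte list summed to 61.6 to 119 CPM in tumors, of which Ptprc made up 52 to 103 CPM. Of the endothelial markers 2 were higher and 1 lower, and of the stellate cell markers 1 was higher and 1 lower. Of the Kupffer cell markers 3 were lower (Marco, Timd4 and Cd5l). The 17 acute phase genes outside the 36 had a median log2 fold change of −0.78, below that of the 36, and Lcn2, which was higher, was the only one that passed. That list summed to 7436 to 11040 CPM in tumors. In WT livers it summed to 22622 CPM in replicate 2 and to 9393 and 9538 CPM in the others. Against the WT median, the tumors' median log2 ratios were 0.34, −0.71 and −0.20. The fold of this list without WT replicate 2 was not computed. The male-biased genes had 5 lower of 11 tested, and the female-biased genes 1 higher and 1 lower of 7. The part of these cells and lists in the lower level of the 7 genes was not tested.

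An interaction term, fitted to the 14 livers, asked whether NgBR loss had unlike effects on the 2 diets. Each diet has its own count table and depth, so diet and table cannot be told apart in this term. Over all genes 257 passed, and 1 with the correction for transcript length and GC content. Of the 36 genes 1 passed, Mbl2, beside 1.62% of all 15850 genes tested and 1.03% with a negative sign. Its genotype effect was 0.94 ± 0.22 lower on the log2 scale under WD than under HFD (adjusted p = 0.0422). In CPM, N-LKO livers were above all WT livers under HFD and, at 105, 137 and 79.1 against 174, 152.1 and 151.6, below all WT livers under WD. The interaction of Mbl2 kept its sign in all 21 alternative settings and passed in 7 of them. It passed with WT liver replicate 3 under HFD or N-LKO liver replicate 2 under WD left out, and with none of the other 12 libraries left out (adjusted p up to 0.143 over all settings). Next in order were Proc (−0.54, adjusted p = 0.068) and F10 (−0.66, adjusted p = 0.0816). The median interaction of the 36 was −0.24, and −0.03 without WT liver replicate 2 under WD.

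Other genes of the same pathways, 68 in all, were listed by function. Under HFD, 8 of the 56 tested fell and 1 rose, beside 4.84% of all genes tested that passed in either direction and 2.29% that fell. Those that fell included Hc, which encodes C5 (−0.43), Cfhr2 (−0.45), the soluble lectins Colec10 (−1.23) and Fcna (−1.19), Cfp, which stabilizes the C3 convertase (−0.56), Vsig4, a receptor for C3 fragments (−1.002), and Lman1, the cargo receptor that carries F5 and F8 out of the endoplasmic reticulum (−0.42). Cd59a, a membrane inhibitor of the pore, rose by 0.32. Hc measured 910.5, 1138, 934 and 929.0 CPM in WT and 618, 737, 766 and 783 CPM in N-LKO livers, without overlap. Lman1 measured 206, 236, 201 and 236 CPM in WT and 161.1, 160.2, 172 and 164.2 CPM in N-LKO livers, also without overlap. Fcna, Vsig4 and Cfp are largely products of macrophages, and 3 of 10 Kupffer cell markers fell under HFD as well. The part of these cells in the lower levels of Fcna, Vsig4 and Cfp was not tested.

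By group, the complement components outside the 36 had 4 lower of 13 tested under HFD, the complement regulators 2 lower and 1 higher of 11, the receptors 1 lower of 8, the vitamin K cycle and export genes 1 lower of 5, and the inhibitors of coagulation 0 of 11 and other coagulation factors 0 of 8. Antithrombin (Serpinc1), the main inhibitor of thrombin, had a log2 fold change of −0.12. Under WD none of the 65 tested passed in either comparison with N-LKO liver. In tumor against WT liver, 7 of the 65 were lower and 3 higher, beside 14.9% of all genes that passed in either direction and 6.8% lower. The lower ones were Cfd, the protease that activates Cfb (−4.96), Colec10 (−1.81), Fcna (−1.41), C1rl (−0.998), Cpn1 (−0.97), Cfp (−0.92) and Cd59a (−0.66), and the higher ones Plat, tissue plasminogen activator (2.35), Cd93 (1.83) and Itgax, a chain of complement receptor 4 (1.68). In the interaction Cd55 alone of the 63 tested passed, beside 1.62% of all genes, with a genotype effect 0.89 higher under WD than under HFD. Cfd measured 3.71, 24.6 and 18.3 CPM in WT livers under WD and 1.36, 0.089 and 0.052 CPM in tumors, so its fold rests on very low values. It also varied among WT livers under HFD, from 0.917 to 20.4 CPM. Colec10 was low in all tumors, with 26, 7.96 and 9.23 CPM against 56, 46.3 and 48.6 CPM in WT livers, and at 25, 16.9 and 22.9 CPM in N-LKO livers under WD.

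Of the 36 genes, 35 encode a protein with at least one N-X-S/T sequon (X not proline), the site at which N-linked sugars can be placed, or 97.2% beside 77.6% of 11256 tested coding genes. The number ran from 0 in Mbl1 to 26 in F5, with a median of 3.5 beside 2. A sequon is a possible site and not a measured sugar. Across the 36 genes, Spearman's rho between the number of sequons and the log2 fold change was 0.04 under HFD, 0.39 under WD, 0.18 in tumor against N-LKO liver and 0.30 in tumor against WT liver. None of the 4 values was negative. These are descriptions over genes measured in the same libraries, and the genes are not independent. GC content had a rho of −0.54 with the log2 fold change of the 36 under WD, beside −0.28 over all genes tested, and transcript length had −0.28 under HFD, beside −0.37 over all genes. Correction for length and GC left the 7 calls in tumor against WT at 7, with Klkb1 in the place of Proc.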

How the data were processed

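The series holds 17 mouse RNA-seq libraries from 5 groups. The authors removed ribosomal RNA, made libraries with a kit they name as TrueSeq Small RNA, sequenced single-end reads and deposited estimated counts per gene, 1 table for each diet, made in Partek by dividing reads among features. Replicates were not pooled and counts were not scaled. The submitters' processing notes name STAR and mm9, the study's methods TopHat2, while the gene starts in the tables match GENCODE M21 (GRCm38). Strand use was not given in the sources used here, and 0 columns were left unassigned. Depth limits few of these genes, since the lowest estimated count was 61.

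Estimated counts were rounded and tested in edgeR 4.0.16 (R 4.3.3) with TMM, filterByExpr, the quasi-likelihood F test and Benjamini-Hochberg adjustment over all genes tested (threshold 0.05). Standard errors are approximate, taken from the log2 fold change and the F statistic. One fit held the HFD livers, another all 3 WD groups (common biological coefficient of variation 0.149 and 0.243), and the interaction over 14 livers. Adjusted p-values are from these fits unless another tool is named. They set each difference between groups against the spread between these samples, which under WD was estimated over all 3 groups. The 36 genes and all lists (roles, other pathway genes, markers, transcription factors, acute phase and sex-biased genes) were chosen with earlier results of these data known. Genes that passed any comparison are given in full. Alternatives were DESeq2 1.42.0 size factors and test, limma-voom (limma 3.58.1), upper-quartile scaling, no filter, a length and GC offset (values for 97.8% of genes), a replicate block, only the 2 groups compared, and each library left out. Sequons were counted in translated GENCODE M21 transcripts, since no RefSeq protein table was used here. Promoter windows are from RefSeq (GRCm38.p6). The main edgeR fit was tested on simulated counts, for N-LKO against WT liver under HFD and for tumor against WT liver. Some genes of the lists are not reported here by name.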

Additional observations from a re-analysis of the deposited data

Results flagged for a closer look

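In 6 of 72 sets of 4 HFD livers (36 genes in each genotype), the highest or lowest liver stood away from the others by more of the range of the 4 than Dixon's critical value at 95%. Chance alone gives about 1 in 20. WT replicate 1 was the highest in F13b, at 220.2 CPM with the next at 198 CPM (gap 0.903 of the range). It was the lowest in Plg, at 2135 CPM with the next at 2388 CPM (0.885), and in C3, at 5501 CPM with the next at 6762 CPM (0.835). N-LKO replicate 1 was the lowest in F7, at 38.2 CPM with the next at 45 CPM (0.929), in C8a, at 336 CPM with the next at 533 CPM (0.924), and in C8b, at 61.4 CPM with the next at 109.9 CPM (0.923). Without N-LKO replicate 1 the log2 fold change of C8b under HFD was −0.66 in place of −0.83, and it still passed. For Mbl2 the effect of NgBR loss differed between HFD and WD in the interaction test, by −0.94 on the log2 scale. Diet and count table cannot be told apart in that test.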

How the results depend on the processing

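No called gene changed sign under any alternative. Of the 36 genes, the sign was the same in all alternatives for 29 under HFD (15 alternatives), 32 in N-LKO against WT liver under WD (17), 27 in tumor against N-LKO liver (17), 25 in tumor against WT liver (17) and 21 in the interaction (21). Under HFD, 3 genes passed, and the number was 1 with no filter on low counts, 1 with the length and GC offset, 7 with DESeq2's test and 0 to 2 with 1 library left out. N-LKO against WT liver under WD gave 0 throughout, and its median log2 fold change ran from −0.58 to −0.19 with 1 library left out. Tumor against N-LKO liver went from 0 to 2 with DESeq2's test and to between 0 and 3 with 1 library left out. Tumor against WT liver, with 7, gave 13 with DESeq2's test, 2 when only the 2 groups compared were fitted, and 1 to 9 with 1 library left out. The interaction, with 1, gave 5 with DESeq2's test, 0 with the length and GC offset, 0 with the replicate block and 0 to 1 with 1 library left out, and its median ran from −0.39 to −0.027. Except where the alternative itself uses fewer samples or tests other genes, the cause was not tested.

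Same-numbered samples did not deviate together (correlations of −0.124 to 0.107), so the numbers were not taken as pairs. With the replicate block, 3 of the 36 genes passed under HFD (C3, C8a and C8b), 0 in N-LKO against WT liver and in tumor against N-LKO liver, and 6 in tumor against WT liver (F2, F12, C6, C8a, Masp1 and Masp2). Over all genes the block gave 494, 0, 36 and 1860 calls in these comparisons, and 0 in the interaction.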
